A study of Homo sapiens with 15 samples.

Results

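Band 16p11 of chromosome 16 holds a run of neighbouring genes, from ZNF48 to KRABD5, many of which had lower levels in T-DM1-resistant clones of the breast cancer line BT474 than in the line they came from. The stretch was chosen from measured values of the same arrays, for a fall in clones C#1 and C#2, and its 38 listed symbols are neighbours around ZNF48, ZNF689 and KAT8, whether or not each of them fell. They name 37 genes, because ZNF720 is an older symbol of KRABD5. Of these, 26 had a probe set under their symbol, all 26 passed the filter on dim probe sets, and they are described here out of 12147 genes tested. The other 11 genes were not analysed here: MYLPF, ITGAL, PHKG2, RNF40, HSD3B7, PRSS53, VKORC1, PRSS8, PRSS36, ITGAM and ITGAX.

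T-DM1 is the antibody trastuzumab, which binds HER2, joined to a microtubule poison, and BT474 is a human line with amplified HER2. The 5 groups were resistant clone C#1, resistant clone C#2, resistant clone C#3, resistant clone C#6 and the sensitive parental line, with 3 arrays each that the labels call biological replicates. Each resistant group is 1 clone, grown from a single cell after prolonged exposure to the drug and then kept in 5 nM T-DM1 for 3 months. The labels do not say whether the cells were harvested in T-DM1, and they describe no parental culture with the drug, so resistance, cloning and culture with the drug cannot be told apart. The p-values below rest on the spread between arrays of the same group, pooled over the 15 arrays. They do not measure a spread between clones. Levels are the authors' log2 expression values, on which a difference of 1 is a doubling. Of 13 luminal epithelial markers with a symbol, 10 lay above the upper quartile of every array. None of the 4 leukocyte and 3 basal markers with a symbol did so on any array, nor did 3 of the 4 mesenchymal ones, while VIM, the fourth, lay above it on 14 arrays at levels of 5.88 to 7.41. ERBB2, the gene of HER2, has no symbol here.

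The band is dense in genes. It carries a cluster of C2H2 zinc finger genes, several of them with a KRAB domain, which recruits corepressors that silence chromatin. Between them lie genes of proteins that set the state of chromatin: SETD1A methylates histone H3 on lysine 4 at promoters, KAT8 acetylates histone H4, and SRCAP loads the histone variant H2A.Z.

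The stretch was named for its fall in C#1 and C#2. Many of its genes were low in C#6 as well, against the same parental arrays on which the members were chosen. The median change of the 26 members against the parental line was -0.48 in C#1, -0.54 in C#2, -0.19 in C#3 and -0.28 in C#6, on the log2 scale. Over all genes tested these medians lay between -0.02 and 0.00. The 4 comparisons share the parental arrays, on which the members were also chosen, so no test is drawn from these medians, and the adjusted p-values given for single genes in C#3 and C#6 rest on the same parental arrays. The median over the members in each single array, set against the parental means, was -0.56 to -0.45 in C#1, -0.56 to -0.45 in C#2, -0.25 to -0.15 in C#3, -0.44 to -0.22 in C#6 and -0.01 to 0.02 in the parental line. No clone array reached the parental range, while C#3 and C#6 overlapped each other. In C#6 the lowest value, -0.44, was that of replicate 1, and replicates 2 and 3 lay at -0.22 and -0.25. In RNA from whole cultures, fewer cells that use a gene and less RNA per cell cannot be told apart.

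**Figure D1:**
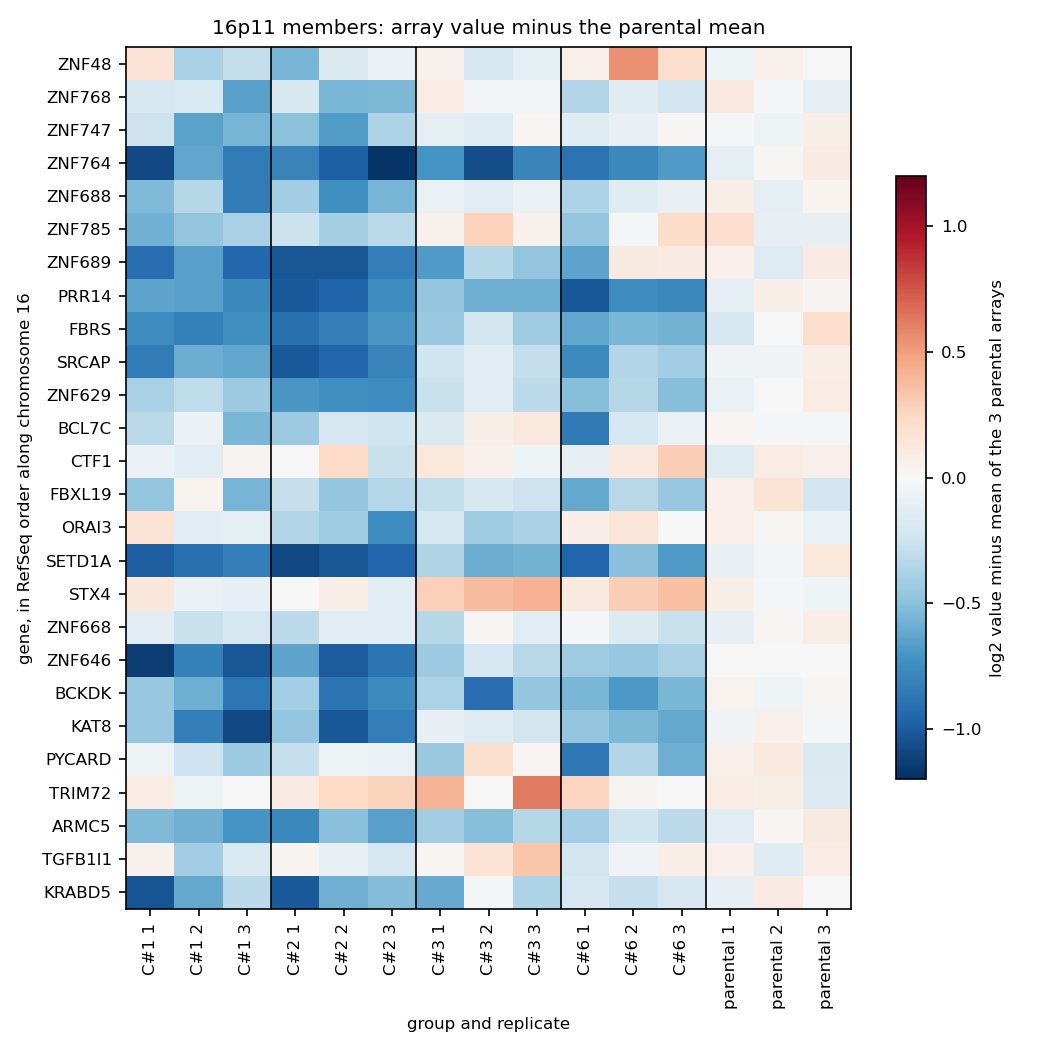
Each cell is the log2 value of 1 array minus the mean of the 3 parental arrays. The 26 members run down the page in RefSeq gene order, and the arrays run across as C#1, C#2, C#3, C#6 and parental. SETD1A, ZNF764, PRR14, FBRS, BCKDK and ARMC5 are blue in every clone array, whereas STX4, CTF1, TRIM72 and TGFB1I1 show no such band.

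With limma and an adjusted p below 0.05, 15 of the 26 members were lower in C#1, where 11.2% of all genes tested were lower, and 16 were lower in C#2, where the share of all genes was 11.5%. In C#3 the count was 6 members, against 11% of all genes, and in C#6 it was 12 members, against 14.7% of all genes. One member, STX4, was higher in C#3, where 6.22% of all genes were higher. All 3 arrays of the clone lay below all 3 parental arrays for 18 members in C#1 (21.8% of all genes), 21 in C#2 (22.1%), 12 in C#3 (22.3%) and 15 in C#6 (24.1%). Nothing is read from the counts in C#1 and C#2, which chose the genes. Those in C#3 and C#6 rest on the same parental arrays, so they are a description as well. In all 4 clones 6 members were lower: ZNF764, PRR14, FBRS, SETD1A, BCKDK and ARMC5. A further 4, SRCAP, ZNF629, ZNF646 and KAT8, were lower in C#1, C#2 and C#6, and the 4 called lower in C#1 and C#2 and not in C#3 or C#6 were ZNF747, ZNF688, ZNF689 and KRABD5. In no clone did ZNF48, BCL7C, CTF1, STX4, ZNF668, TRIM72 or TGFB1I1 pass as lower.

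The promoters of 4 members are shown because these genes span the range of responses: SETD1A and ZNF764 were lower in all 4 clones, ZNF646 was lower in C#1 and C#2 than in C#3 and C#6, and STX4 was not lower in any clone. Each run is the reference sequence of RefSeq (GRCh38.p14), 5′ to 3′ on the gene's own strand, from 250 bases before the annotated start to 50 bases after it. Capitals mark GGGCGG (the GC box, bound by SP1-type factors) and CCGGAAG (bound by ETS factors), or their reverse complements CCGCCC and CTTCCGG. SETD1A lies at chr16:30957504-30957803 on the plus strand, ZNF764 at chr16:30558325-30558624 on the minus strand, ZNF646 at chr16:31074172-31074471 on the plus strand and STX4 at chr16:31032845-31033144 on the plus strand.
SETD1A: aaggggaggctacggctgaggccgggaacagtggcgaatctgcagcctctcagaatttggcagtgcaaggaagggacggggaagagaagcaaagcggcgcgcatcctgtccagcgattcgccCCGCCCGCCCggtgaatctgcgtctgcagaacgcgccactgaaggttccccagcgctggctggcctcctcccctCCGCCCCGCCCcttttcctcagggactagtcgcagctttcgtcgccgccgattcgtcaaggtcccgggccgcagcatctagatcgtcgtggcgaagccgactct
ZNF764: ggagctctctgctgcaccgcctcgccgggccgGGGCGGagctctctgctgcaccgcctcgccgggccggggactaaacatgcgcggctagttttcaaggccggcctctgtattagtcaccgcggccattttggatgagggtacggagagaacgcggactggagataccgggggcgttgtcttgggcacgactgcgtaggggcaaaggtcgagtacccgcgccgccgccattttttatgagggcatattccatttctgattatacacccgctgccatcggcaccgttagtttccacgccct
ZNF646: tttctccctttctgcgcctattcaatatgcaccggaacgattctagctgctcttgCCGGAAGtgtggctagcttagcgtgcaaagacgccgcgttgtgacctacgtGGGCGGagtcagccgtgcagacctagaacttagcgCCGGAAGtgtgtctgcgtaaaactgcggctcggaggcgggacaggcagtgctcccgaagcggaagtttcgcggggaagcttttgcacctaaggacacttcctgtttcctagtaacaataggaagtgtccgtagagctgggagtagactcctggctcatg
STX4: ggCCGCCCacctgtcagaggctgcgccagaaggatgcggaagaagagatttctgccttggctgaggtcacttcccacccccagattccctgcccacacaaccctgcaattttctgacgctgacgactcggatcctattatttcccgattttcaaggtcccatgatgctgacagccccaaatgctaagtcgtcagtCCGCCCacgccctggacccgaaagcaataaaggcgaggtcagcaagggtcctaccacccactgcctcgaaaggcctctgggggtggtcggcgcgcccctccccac

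RefSeq gave a promoter for 23 of the 26 members. Their GC content ran from 51.7% to 81.7% with a median of 65.0%, close to the median of 64.3% over the 9176 tested genes with a promoter. A GC box on either strand was present in 17 of the 23 members (73.9%), in 65.4% of the promoters of tested genes and in 44.6% of all 27305 promoters. The ETS letters were present in 8 members (34.8%), in 16.7% of the promoters of tested genes and in 10.7% of all promoters. ZNF646 and ZNF668, whose windows share 281 bases, are each counted here and among the members with a GC box. CCAAT or its reverse complement ATTGG was present in 6 members (26.1%), against 35.9% of tested genes and 35.7% of all promoters, and in none of the 4 printed. TATAAA, searched on both strands, was in 0 of the 23 (6.75% of tested genes and 12% of all promoters), and so was CACGTG, an E-box (9.56% of tested genes and 7.43% of all promoters). AAGATGG (reverse complement CCATCTT) was in 2 members (8.7%), against 7.0% of tested genes and 6.06% of all promoters. These are matches of letters in a 300-base window, and binding was not measured.

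Of the members grouped by role, the chromatin genes had the lowest medians in every clone, though the groups were not matched for brightness. The medians of the 7 tested were -0.69 in C#1, -0.81 in C#2, -0.25 in C#3 and -0.54 in C#6. Of them 5, 5, 3 and 6 passed as lower in C#1, in C#2, in C#3 and in C#6, against 11.2%, 11.5%, 11% and 14.7% of all genes. Brighter members fell more. The 15 above the upper quartile of every array had medians of -0.64, -0.73, -0.24 and -0.51 in these clones. Those of the other 11 were -0.20, -0.29, -0.09 and -0.14. All chromatin members except BCL7C were among the 15, and role was not separated from brightness.

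SETD1A, a histone H3 lysine 4 methyltransferase, had log2 levels of 6.35, 6.45 and 6.51 in C#1, of 6.26, 6.31 and 6.39 in C#2, of 6.98, 6.74 and 6.77 in C#3 and of 6.39, 6.84 and 6.66 in C#6, against 7.25, 7.31 and 7.46 in the parental line. Every clone array was below every parental array, and 1 array of C#6 lay within the range of C#1. The changes were -0.91, -1.02, -0.51 and -0.71 in C#1, in C#2, in C#3 and in C#6 (SE 0.12 each), which is 2.03-fold lower in C#2. Those in C#3 and C#6 had limma adjusted p = 0.00652 and adjusted p = 0.000363.

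SRCAP, the ATPase of the complex that exchanges H2A for H2A.Z, had levels of 8.13, 8.38 and 8.35 in C#1, of 7.97, 8.02 and 8.17 in C#2, of 8.73, 8.84 and 8.68 in C#3 and of 8.21, 8.62 and 8.56 in C#6, against 8.93, 8.93 and 9.05 in the parental line. The C#2 arrays reached the lowest values, and the C#3 arrays lay just under the parental ones. The change was -0.69 in C#1, -0.92 in C#2, -0.22 in C#3 (limma adjusted p = 0.216) and -0.51 in C#6 (limma adjusted p = 0.00433), each with SE 0.12.

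KAT8, the acetyltransferase of the MSL and NSL complexes, had levels of 7.32, 6.96 and 6.69 in C#1, of 7.31, 6.76 and 6.94 in C#2, of 7.67, 7.62 and 7.56 in C#3 and of 7.31, 7.23 and 7.17 in C#6, against 7.74, 7.84 and 7.76 in the parental line. The C#1 and C#2 arrays were widely spread (SD 0.32 and SD 0.28, n = 3 each), and the C#6 arrays fell inside that spread. The changes were -0.78, -0.77, -0.16 and -0.54 in C#1, in C#2, in C#3 and in C#6 (SE 0.15). The C#6 change had limma adjusted p = 0.014, which was lost without parental replicate 2 and with renewed quantile normalization (-0.58 to -0.43 over the alternatives). That in C#3 had limma adjusted p = 0.521.

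PRR14, which tethers heterochromatin to the nuclear lamina, had levels of 9.44, 9.43 and 9.30 in C#1, of 9.07, 9.12 and 9.33 in C#2, of 9.61, 9.50 and 9.50 in C#3 and of 9.06, 9.32 and 9.31 in C#6, against 9.97, 10.15 and 10.11 in the parental line. All 4 clones stood apart from the parental arrays, and the C#6 arrays overlapped those of C#2 and not those of C#3. The changes were -0.69, -0.91, -0.54 and -0.85 in C#1, in C#2, in C#3 and in C#6 (SE 0.10, limma adjusted p = 0.00197 in C#3 and 2.8e-05 in C#6). FBRS, a Polycomb-associated protein, changed by -0.77, -0.81, -0.36 and -0.58 in C#1, in C#2, in C#3 and in C#6 (SE 0.11). Its call in C#3 (limma adjusted p = 0.0301) was lost without parental replicate 2 or 3 or without C#3 replicate 1 or 3, with changes between -0.46 and -0.26 over the alternatives.

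BCL7C, a subunit of BAF chromatin remodellers, changed by -0.31, -0.29, 0.01 and -0.38 in C#1, in C#2, in C#3 and in C#6 (SE 0.17) and passed in none of them. FBXL19, an F-box protein that binds CpG islands, changed by -0.33, -0.36, -0.25 and -0.47 in C#1, in C#2, in C#3 and in C#6 (SE 0.14). Only the change in C#6 passed (limma adjusted p = 0.0277), and it was lost without parental replicate 1 or 2 or without C#6 replicate 1 or 3 (-0.58 to -0.35 over the alternatives).

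**Figure D2:**
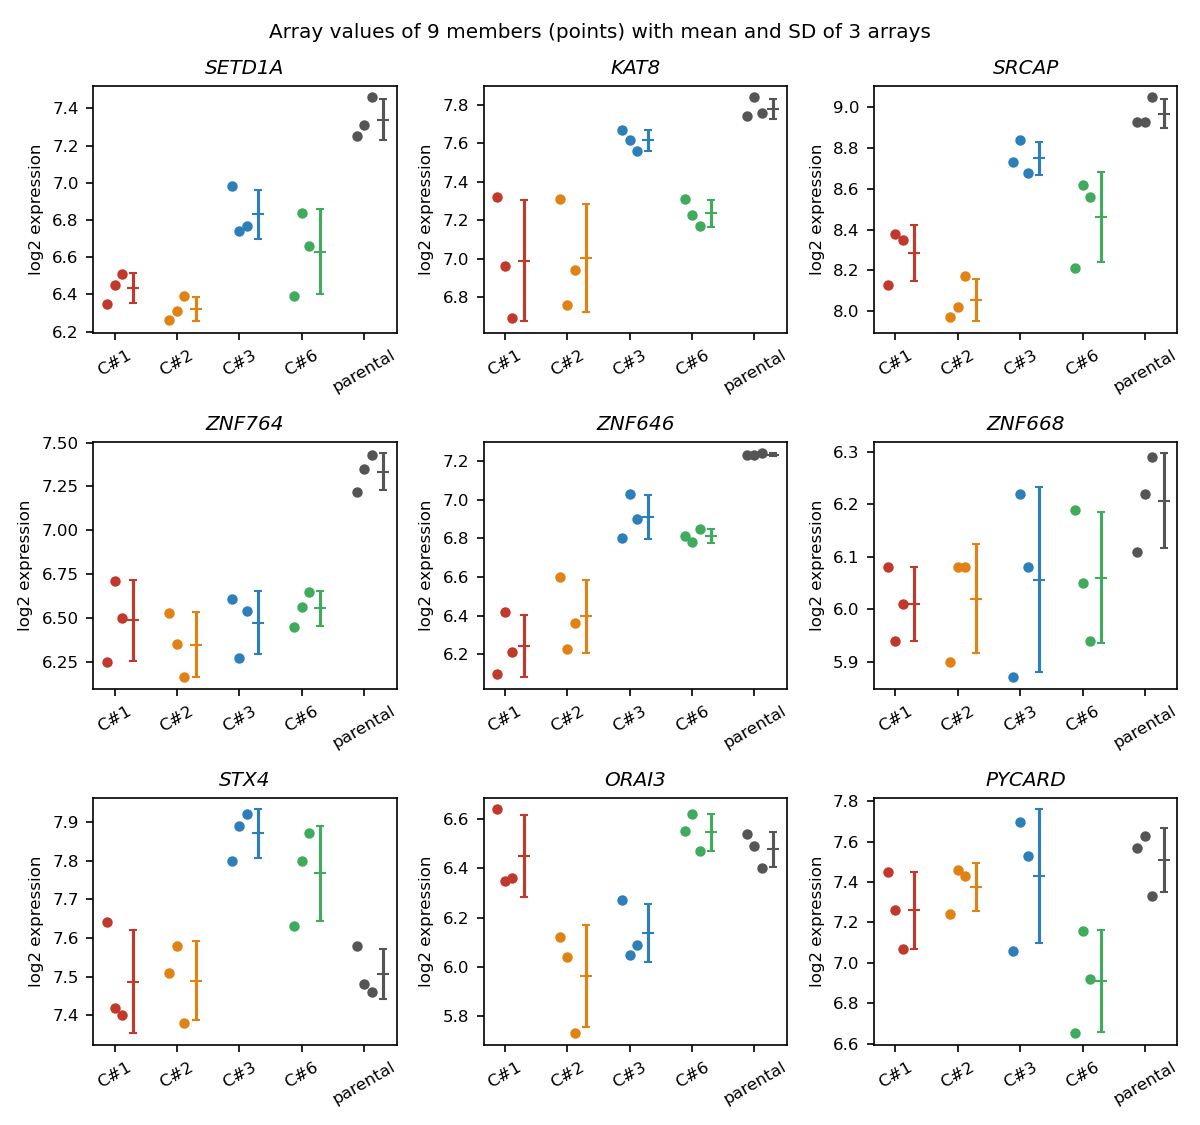
Points are the log2 expression values of the 3 arrays of C#1, of C#2, of C#3, of C#6 and of the parental line for 9 members, and bars are the mean and SD (n = 3). The vertical axes differ in range and do not start at 0. SETD1A, KAT8, SRCAP, ZNF764 and ZNF646 sit below the parental arrays in all clone arrays, STX4 lies above the parental arrays in C#3 and C#6, ORAI3 lies below them in C#2 and C#3, and PYCARD lies below them in C#6.

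The 11 tested zinc finger and KRAB genes had medians of -0.48 in C#1, -0.57 in C#2, -0.15 in C#3 and -0.20 in C#6. In C#1 8 of them passed as lower, in C#2 8, in C#3 1 and in C#6 3. For comparison, of the 369 tested ZNF genes on other chromosomes 10.6% were lower in C#1, 14.4% in C#2, 10.3% in C#3 and 22% in C#6, with medians of -0.07, -0.13, -0.08 and -0.17 in these clones. Of the 18 ZNF genes elsewhere on chromosome 16, 2 were lower in C#1, 2 in C#2, 1 in C#3 and 1 in C#6.

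ZNF764, a KRAB zinc finger gene, was lower in the 4 clones at overlapping levels. Its levels were 6.25, 6.71 and 6.50 in C#1, 6.53, 6.35 and 6.16 in C#2, 6.61, 6.27 and 6.54 in C#3 and 6.45, 6.56 and 6.65 in C#6, against 7.22, 7.35 and 7.43 in the parental line. Every clone array lay below every parental array. The changes were -0.85, -0.99, -0.86 and -0.78 in C#1, in C#2, in C#3 and in C#6 (SE 0.13), and those in C#3 and C#6 had limma adjusted p = 0.000393 and adjusted p = 0.000504. ZNF764 was the only zinc finger member that passed in C#3.

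ZNF646, a large zinc finger protein, had levels of 6.10, 6.42 and 6.21 in C#1, of 6.60, 6.23 and 6.36 in C#2, of 6.80, 7.03 and 6.90 in C#3 and of 6.81, 6.78 and 6.85 in C#6, against 7.23, 7.23 and 7.24 in the parental line. The clones formed 2 levels, with C#1 and C#2 below C#3 and C#6 and no array of one pair within the range of the other. The changes were -0.99, -0.84, -0.33 and -0.42 in C#1, in C#2, in C#3 and in C#6 (SE 0.11, limma adjusted p = 0.0544 in C#3 and 0.0117 in C#6). With renewed quantile normalization the C#6 change no longer passed (-0.29, adjusted p = 0.0678).

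ZNF668 starts beside ZNF646 on the opposite strand, and their promoter windows share 281 bases, so the printed ZNF646 window holds nearly all of that of ZNF668. ZNF668 had levels of 6.08, 5.94 and 6.01 in C#1, of 5.90, 6.08 and 6.08 in C#2, of 5.87, 6.22 and 6.08 in C#3 and of 6.19, 6.05 and 5.94 in C#6, against 6.11, 6.22 and 6.29 in the parental line. The C#3 and C#6 arrays overlapped the parental ones, while those of C#1 and C#2 lay just below. Its changes were -0.20, -0.19, -0.15 and -0.15 in C#1, in C#2, in C#3 and in C#6 (SE 0.11), and none passed. A second, dimmer probe set of ZNF668 changed by -0.05, 0.07, 0.01 and 0.14 in C#1, in C#2, in C#3 and in C#6.

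ZNF689, a KRAB zinc finger gene, had levels of 5.64, 5.91 and 5.62 in C#1, of 5.53, 5.53 and 5.72 in C#2, of 5.88, 6.22 and 6.09 in C#3 and of 5.92, 6.67 and 6.66 in C#6, against 6.62, 6.40 and 6.66 in the parental line. Its C#6 arrays disagreed, with 1 of them near the C#3 level and the other 2 at the top of the parental range. The changes were -0.83, -0.96, -0.50 and -0.14 in C#1, in C#2, in C#3 and in C#6 (SE 0.17, limma adjusted p = 0.0513 in C#3).

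ZNF747 had levels of 7.22, 6.82 and 6.91 in C#1, of 6.97, 6.79 and 7.09 in C#2, of 7.36, 7.31 and 7.47 in C#3 and of 7.32, 7.38 and 7.48 in C#6, against 7.45, 7.40 and 7.54 in the parental line. The arrays of C#3 and C#6 overlapped the parental ones, and those of C#1 and C#2 did not. ZNF688 showed the same arrangement, with changes of -0.57, -0.57, -0.09 and -0.20 in C#1, in C#2, in C#3 and in C#6 (SE 0.13). KRABD5, which has a KRAB domain, changed by -0.65, -0.70, -0.33 and -0.23 in C#1, in C#2, in C#3 and in C#6 (SE 0.18). It was no longer called in C#1 without its replicate 1 or without parental replicate 2 or 3, or in C#2 without its replicate 1 (-0.82 to -0.46 and -0.79 to -0.54 over the alternatives).

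ZNF629 changed by -0.38, -0.73, -0.24 and -0.45 in C#1, in C#2, in C#3 and in C#6 (SE 0.09), and its call in C#1 was lost without parental replicate 3 (-0.42 to -0.31 over the alternatives). The calls of ZNF768 in C#2 (-0.42) and of ZNF785 in C#1 (-0.48) were each lost under 6 alternatives, with changes of -0.54 to -0.36 and of -0.53 to -0.15. ZNF768 lost its call when any parental array or C#2 replicate 2 or 3 was left out, and ZNF785 without parental replicate 1 or 3 or C#1 replicate 1 or 2. A dimmer probe set of ZNF785 changed by 0.18, 0.14, 0.02 and 0.05 in C#1, in C#2, in C#3 and in C#6. ZNF48, at the start of the stretch, changed by -0.17, -0.27, -0.08 and 0.27 in C#1, in C#2, in C#3 and in C#6 (SE 0.16) and passed in none.

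The 8 other tested members, with roles outside chromatin, had medians of -0.12 in C#1, -0.11 in C#2, -0.02 in C#3 and 0.01 in C#6. BCKDK and ARMC5 were the members of this group that passed as lower in all 4 clones.

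BCKDK, the kinase that switches off the breakdown of branched-chain ketoacids, had levels of 8.12, 7.98 and 7.71 in C#1, of 8.17, 7.69 and 7.81 in C#2, of 8.19, 7.66 and 8.11 in C#3 and of 8.03, 7.88 and 8.02 in C#6, against 8.62, 8.52 and 8.58 in the parental line. The clones overlapped one another and none reached the parental arrays. The changes were -0.64, -0.68, -0.59 and -0.59 in C#1, in C#2, in C#3 and in C#6 (SE 0.15, limma adjusted p = 0.0122 in C#3 and 0.00838 in C#6). Without C#3 replicate 2 the change in C#3 was -0.43 with adjusted p = 0.0631.

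ARMC5, an adaptor of CUL3 ubiquitin ligases, changed by -0.61, -0.64, -0.42 and -0.32 in C#1, in C#2, in C#3 and in C#6 (SE 0.10). It was dim, between 4.71 and 5.60 over all arrays. Its calls in C#3 (limma adjusted p = 0.00987) and C#6 (limma adjusted p = 0.0346) were lost without parental replicate 3, and that in C#6 also without parental replicate 2, C#6 replicate 1 or C#6 replicate 3 (-0.38 to -0.25 over the alternatives).

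STX4, a SNARE of the plasma membrane, ran the other way. Its levels were 7.64, 7.42 and 7.40 in C#1, 7.51, 7.58 and 7.38 in C#2, 7.80, 7.89 and 7.92 in C#3 and 7.63, 7.80 and 7.87 in C#6, against 7.58, 7.48 and 7.46 in the parental line. The arrays of C#3 and C#6 all lay above the parental ones, and those of C#1 and C#2 overlapped them. The changes were -0.02, -0.02, 0.36 and 0.26 in C#1, in C#2, in C#3 and in C#6 (SE 0.10, limma adjusted p = 0.021 in C#3 and 0.08 in C#6). The call in C#3 was lost without parental replicate 2 or 3 or without C#3 replicate 2 or 3, with changes of 0.33 to 0.44 and adjusted p up to 0.081.

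ORAI3, a calcium channel opened when stores in the endoplasmic reticulum are empty, had levels of 6.64, 6.35 and 6.36 in C#1, of 6.12, 6.04 and 5.73 in C#2, of 6.27, 6.05 and 6.09 in C#3 and of 6.55, 6.62 and 6.47 in C#6, against 6.54, 6.49 and 6.40 in the parental line. It was low in C#2 and C#3, while C#1 and C#6 overlapped the parental arrays. The changes were -0.02, -0.51, -0.34 and 0.07 in C#1, in C#2, in C#3 and in C#6 (SE 0.12, limma adjusted p = 0.0555 in C#3).

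PYCARD, the adaptor protein of inflammasomes, had levels of 7.45, 7.26 and 7.07 in C#1, of 7.24, 7.46 and 7.43 in C#2, of 7.06, 7.70 and 7.53 in C#3 and of 6.65, 7.16 and 6.92 in C#6, against 7.57, 7.63 and 7.33 in the parental line. Its C#6 arrays all lay below the parental arrays, and those of the other 3 clones overlapped them. The C#6 change was -0.60 (SE 0.16, limma adjusted p = 0.0137), which was lost without parental replicate 2 or C#6 replicate 1 (-0.72 to -0.47 over the alternatives). CTF1, a cytokine, TRIM72, a protein of membrane repair known from muscle, and TGFB1I1, an adaptor of focal adhesions, passed in no clone, with changes between -0.18 and 0.34.

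C#3 against C#6 was the comparison whose difference used neither the parental line nor the clones that named the stretch, while its estimate of the spread came from all 15 arrays. One of 26 members passed as lower in C#3 than in C#6 (4.06% of all genes did), and 0 as higher (4.96% of all genes). With limma 9 members had an unadjusted p below 0.05, as did 21.6% of all genes. The 1 member of 26 (3.85%) is near the share of all genes. That member was ORAI3, whose 3 C#3 arrays all lay below the 3 C#6 arrays, with a difference of -0.41 (SE 0.12, limma adjusted p = 0.0364). No member passed without parental replicate 2, C#3 replicate 2, C#3 replicate 3 or C#6 replicate 3. PYCARD was 0.52 higher in C#3 than in C#6 (SE 0.16, limma adjusted p = 0.0571). The 7 chromatin members all had higher means in C#3, by 0.20 (SETD1A) to 0.38 (BCL7C and KAT8) and with a median of 0.29, and none passed the threshold. In each of them except KAT8, replicate 1 was the lowest of the C#6 arrays, at 5.51 against 6.17 and 6.29 in BCL7C. The shared direction thus leans in part on 1 array.

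The remaining pairs of clones use arrays that named the stretch and are given as a description. C#1 was lower than C#3 in 9 members (8.65% of all genes) and lower than C#6 in 3 (5.61% of all genes), which were ZNF747, ZNF689 and ZNF646. C#2 was lower than C#3 in 12 members (8.79% of all genes) and lower than C#6 in 6 (5.47% of all genes): ZNF48, ZNF747, ZNF689, SRCAP, ORAI3 and ZNF646. No member was higher in C#1 or C#2 than in C#3 or C#6. Between C#1 and C#2 limma called 0 genes of all 12147, with 807 at an unadjusted p below 0.05, among them ZNF629 (0.35 higher in C#1, adjusted p = 0.458) and ORAI3 (0.49 higher in C#1, adjusted p = 0.344). The lowest of the 4 clone means fell in C#2 for 15 members, in C#1 for 8, in C#6 for 3 and in C#3 for 0.

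Chromosome 16 as a whole also differed between the clones, and in a different order. The 490 tested genes of the chromosome outside the stretch and its flanks had medians of -0.07 in C#1, -0.05 in C#2, 0.10 in C#3 and 0.12 in C#6 against the parental line. Among them 66 were lower and 15 higher in C#1, 63 and 19 in C#2, 22 and 71 in C#3, and 20 and 88 in C#6. The median over the whole chromosome ranked lowest of 23 chromosomes in C#1 (-0.09) and highest in C#6 (0.11). The members thus lay, at their median, below the parental line in C#3 and C#6, where most called genes of the chromosome lay above it. Between clones, the members' median for C#1 minus C#6 was -0.17 and that of the rest of the chromosome was -0.21. For C#2 minus C#6 the values were -0.23 for the members and -0.16 for the rest, for C#1 minus C#3 they were -0.33 and -0.17, and for C#2 minus C#3 they were -0.37 and -0.14. The part of the chromosome-wide difference in the members' values was not tested.

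**Figure D3:**
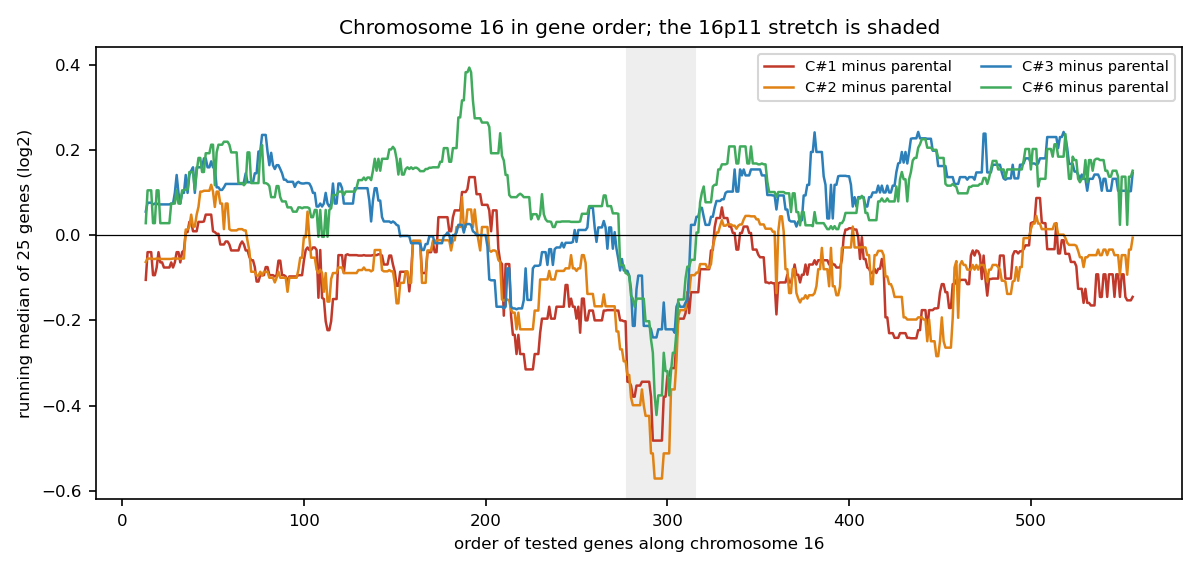
Lines are running medians of 25 tested genes in RefSeq order along chromosome 16, of the log2 change of the 4 clones against the parental line. The shaded stretch, chosen on these arrays for its fall in C#1 and C#2, holds the lowest point of each line. These points lie at -0.48 in C#1, -0.57 in C#2, -0.24 in C#3 and -0.42 in C#6.

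In gene order, the lowest running medians lay inside the stretch, and the fall was not shared by every gene within it. Single genes in the rest of the chromosome fell further than any in the stretch in C#3 (-1.48) and C#6 (-1.60). Among the 20 tested genes after KRABD5, the lowest changes were -1.27 in C#1 and -1.49 in C#2, below every member. The running median of 25 genes had its lowest point on chromosome 16 inside the stretch in all 4 clones, at -0.48, -0.57, -0.24 and -0.42 in C#1, in C#2, in C#3 and in C#6. The stretch was chosen on these arrays for its fall in C#1 and C#2. Since C#3 and C#6 are set against the same parental arrays, nothing is concluded from where these points lie. The 20 tested genes before ZNF48 had medians of -0.20, -0.20, -0.01 and 0.05, with 8, 8, 2 and 2 called lower in C#1, in C#2, in C#3 and in C#6. The 20 after KRABD5 had medians of 0.04, -0.02, 0.05 and 0.14, with 3, 3, 1 and 1 called lower.

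**Figure D4:**
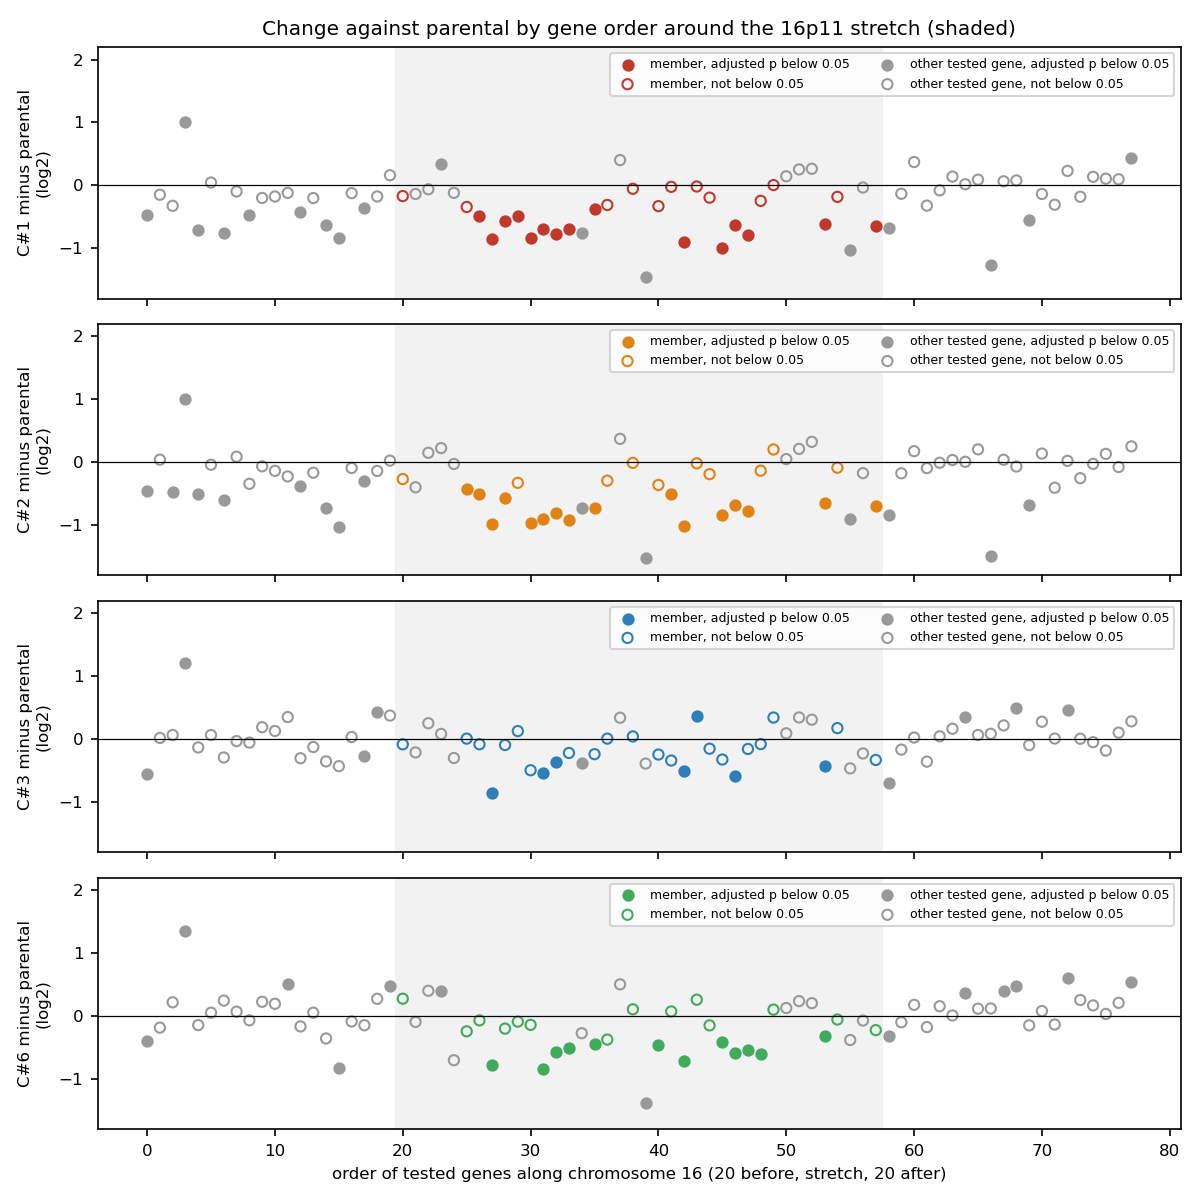
Each point is the log2 change of 1 tested gene against the parental line, in C#1, in C#2, in C#3 and in C#6 from top to bottom, by its order along chromosome 16. Coloured points are members, grey points other genes, and filled points passed an adjusted p below 0.05. In C#1, C#2 and C#6 filled points gather below 0 inside the shaded stretch, among open points near 0.

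Between the first and last member lay 12 tested genes that were not listed, with medians of -0.05 in C#1, 0.01 in C#2, -0.07 in C#3 and 0.03 in C#6. FBXL19-AS1, RUSF1 and CFAP119 fell in C#1 and C#2 like the members around them. FBXL19-AS1, a long noncoding RNA of the FBXL19 locus, had the largest fall of all tested genes between ZNF48 and KRABD5 in C#1, C#2 and C#6. Its levels were 5.62, 6.09 and 6.34 in C#1, 5.98, 5.67 and 6.20 in C#2, 6.99, 7.27 and 7.0 in C#3 and 5.80, 6.31 and 6.18 in C#6, against 7.38, 7.41 and 7.64 in the parental line. C#1, C#2 and C#6 overlapped one another far below C#3, and C#3 lay below the parental arrays. The changes were -1.46, -1.53, -0.39 and -1.38 in C#1, in C#2, in C#3 and in C#6 (SE 0.18, limma adjusted p = 0.159 in C#3 and 4.78e-05 in C#6). C#3 was 0.99 higher than C#6 (limma adjusted p = 0.00221). The strand that each probe set reads is not named in the files or labels, so its signal and that of FBXL19 are uncertain where they overlap.

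RUSF1 had levels of 8.46, 7.97 and 7.59 in C#1, of 8.29, 7.99 and 8.10 in C#2, of 8.75, 8.47 and 8.47 in C#3 and of 8.73, 8.63 and 8.58 in C#6, against 9.04, 8.97 and 9.07 in the parental line. All its clone arrays lay below the parental ones, with changes of -1.02, -0.90, -0.47 and -0.38 in C#1, in C#2, in C#3 and in C#6 (SE 0.16). CFAP119 changed by -0.76, -0.72, -0.38 and -0.28 in C#1, in C#2, in C#3 and in C#6 (SE 0.11, limma adjusted p = 0.0254 in C#3). Besides STX4, the only tested gene between the ends that passed as higher in a clone was SEPHS2, a selenophosphate synthetase. It changed by 0.33 in C#1 and 0.40 in C#6 (SE 0.09, limma adjusted p = 0.0149 and 0.00337), and its arrays lay above the parental ones in all 4 clones. Without passing, MIR4519 also had all its arrays above the parental ones in C#1 (0.40) and C#6 (0.50). ZNF771, DCTPP1, MIR4518, MIR4519, PYDC1, COX6A2, ZNF843 and YBX3P1 passed in no clone. Of these, PYDC1, COX6A2 and ZNF843 were dim, with mean levels of 3.99, 3.97 and 4.18.

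Just outside the stretch, ZNF267 beyond KRABD5 changed by -0.68, -0.84, -0.69 and -0.33 in C#1, in C#2, in C#3 and in C#6 (SE 0.10), and all 4 passed with limma. Its next tested neighbours TP53TG3, LINC02184, UBE2MP1 and TP53TG3HP passed in none. On the other side, GDPD3 changed by -0.84, -1.04, -0.43 and -0.82 in C#1, in C#2, in C#3 and in C#6 (SE 0.18), at levels of 3.56 to 5.02 that are among the dim ones. MAPK3, the kinase ERK1, changed by -0.12, -0.09, 0.03 and -0.09 in C#1, in C#2, in C#3 and in C#6 and passed in none, LOC613038 passed as lower in C#1, C#2 and C#3 (-0.35, -0.30 and -0.27), CD2BP2 was higher in C#3 (0.42) and SEPTIN1 was higher in C#6 (0.48). MVP, the major vault protein gene further along the same band, was higher in each of the 4 clones, by 1.02, 1.00, 1.21 and 1.35 in C#1, in C#2, in C#3 and in C#6 (SE 0.14).

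Genes elsewhere that work with the members were followed through 17 lists, whose genes are described by counts and medians without a test of the list. The shares of all genes called lower, given above, lay between 11% and 14.7%. Those called higher were 6.03% in C#1, 5.47% in C#2, 6.22% in C#3 and 7.73% in C#6. Of the 11 other subunits of the MSL and NSL complexes that act with KAT8, 6 were lower in C#1, 6 in C#2, 5 in C#3 and 6 in C#6, with medians of -0.47, -0.42, -0.30 and -0.36. In C#6 1 of them was higher. KANSL1 changed by -0.74, -0.86, -0.68 and -0.88 (SE 0.11), KANSL2 by -0.67, -0.58, -0.35 and -0.49 (SE 0.10) and HCFC1 by -0.65, -0.67, -0.68 and -0.77 (SE 0.11) in C#1, in C#2, in C#3 and in C#6, and all passed with limma. In these, unlike in KAT8, C#3 passed as well, though the difference was not tested.

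HCFC1 also belongs to the 14 tested genes of histone H3 lysine 4 methyltransferase complexes, the partners of SETD1A, of which 4 were lower in C#1, 4 in C#2, 2 in C#3 and 5 in C#6. In C#1, in C#3 and in C#6 1 of the 14 was higher. MEN1, a scaffold of such complexes, changed by -0.53, -0.64, -0.36 and -0.92 in C#1, in C#2, in C#3 and in C#6 (SE 0.11). CXXC1, which guides SETD1A complexes to CpG islands, changed by -0.77, -0.42, -0.01 and -0.31 in C#1, in C#2, in C#3 and in C#6 (SE 0.10, limma adjusted p = 0.96 in C#3). Of 9 SRCAP partners 0, 1, 1 and 3 were lower in C#1, in C#2, in C#3 and in C#6, and ACTR6, a subunit of that complex, was higher in C#1 and C#2 by 0.86 and 0.76 and changed by -0.39 in C#6 (SE 0.13).

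Of 9 corepressors of KRAB zinc fingers, 3 were lower in C#1, 4 in C#2, 2 in C#3 and 4 in C#6. TRIM28, the protein that KRAB domains bind, changed by -0.70, -0.51, -0.37 and -0.48 in C#1, in C#2, in C#3 and in C#6 (SE 0.15, limma adjusted p = 0.106 in C#3), MORC2 by -0.48, -0.38, -0.22 and -0.14 (SE 0.11) and ATF7IP by -0.33, -0.44, -0.36 and -0.60 (SE 0.11) across the clones in that order. Of 7 BAF subunits 1, 4, 2 and 3 were lower in C#1, in C#2, in C#3 and in C#6, among them BCL7B, a paralogue of BCL7C, by -0.71 and -0.68 in C#1 and C#2. Of 5 genes of H2B ubiquitination and the PAF1 complex 1, 2, 3 and 1 were lower in C#1, in C#2, in C#3 and in C#6, and USP22, a deubiquitinase, changed by -0.40 and -0.44 in C#1 and C#2.

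Around the other members, 4, 3, 4 and 4 of 8 genes of the paxillin family and focal adhesion were lower in C#1, in C#2, in C#3 and in C#6. PXN changed by -0.65, -0.78, -0.73 and -1.05 (SE 0.13) in C#1, in C#2, in C#3 and in C#6, CSK by -0.78, -0.74, -0.99 and -0.92 (SE 0.14) and ZYX by -0.64, -0.60, -0.80 and -1.33 (SE 0.19), whereas TGFB1I1 itself passed in no clone. Of 6 genes of store-operated calcium entry, 1 was lower in each clone, and 1, 2, 2 and 1 were higher in C#1, in C#2, in C#3 and in C#6. The channel's inhibitor SARAF was higher in all 4 clones, by 0.91, 0.89, 0.31 and 0.36 in C#1, in C#2, in C#3 and in C#6 (SE 0.10). The calcium sensor STIM2 was lower in C#1 and C#2 by -0.68 and -0.66 (SE 0.20). Of 8 plasma membrane SNAREs 1, 3, 1 and 3 were lower in C#1, in C#2, in C#3 and in C#6, with STX2 at -1.01, -1.01, -0.46 and -0.73 (SE 0.11), while STX4 was not lower. In C#3 1 of the 8 was higher. In the breakdown of branched-chain amino acids 1, 1, 2 and 1 of 8 genes were lower in C#1, in C#2, in C#3 and in C#6, with MCCC1 at -0.45, -0.47, -0.35 and -0.47 (SE 0.11). In C#6 2 of these 8 genes were higher.

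Of 3 tested genes of glycogen metabolism 2, 2, 1 and 2 were lower in C#1, in C#2, in C#3 and in C#6, and these were GYS1 in every clone (-0.79, -0.65, -0.44 and -0.67, SE 0.15) and PGM1 in all but C#3. ST14, a membrane protease, was the 1 tested gene among partners of PRSS8 and was lower in every clone (-0.47, -0.41, -0.50 and -0.66, SE 0.11). The vitamin K cycle (7 genes), leukocyte integrin partners (5), inflammasome (3), bile acid synthesis (2) and cardiotrophin receptor (6) lists had at most 1 gene called lower in any clone. Called higher were 2 vitamin K cycle genes in C#3 and 1 in C#6, 1 leukocyte integrin partner each in C#2, C#3 and C#6, and 1 gene of bile acid synthesis in C#3.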

How the data were processed

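Total RNA of 15 BT474 cultures was measured on Affymetrix arrays, and the values used are log2 expression as deposited by the authors, for 53617 probe sets. The submitters' processing notes name RMA, Expression Console (Affymetrix, version 1.4.1) and the Transcriptome Analysis Console. They give no roles, and no genome build is known. RMA makes arrays more alike in distribution, so a shift of most genes would be largely removed, and changes of dim genes are compressed. The arrays were not fully alike. Their upper quartile lay at 5.94 to 5.96 in the parental line and at 5.80 to 5.89 in the clones. Renewed quantile normalization, which gives all arrays the same quartiles, moved the members' medians from -0.48 to -0.39 in C#1 and from -0.54 to -0.46 in C#2. In C#3 they moved from -0.19 to -0.13 and in C#6 from -0.28 to -0.22. The part of the offset in the changes of bright genes in general was not tested.

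Symbols came from the platform annotation, updated through RefSeq (GRCh38.p14), which also gave gene order and promoters. Of the probe sets, 16098 had 1 symbol. A probe set had to exceed its array's 40th percentile on 3 arrays or more, and the one with the highest mean stood for a gene, leaving 12147 genes. limma 3.58.1 (lmFit and eBayes, R 4.3.3) fitted group means to the 15 arrays together, with 10 residual degrees of freedom, Benjamini-Hochberg adjustment over all genes tested and a threshold of 0.05. The steps were tested on simulated data. The number of arrays limits the precision.

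The members and lists were chosen with earlier results of these data known. Named besides the members are all unlisted tested genes between them, the 5 nearest on each side, MVP, and up to 3 genes per list called in C#1 and C#2 in 1 direction. Alternatives were other filters on dim probe sets, renewed quantile normalization, median centring, the replicate number as a block, other eBayes settings, array weights, the mean of probe sets, the 6 arrays of a comparison alone and leaving out each array. Same-numbered arrays of a clone and the parental line correlated at -0.13 to 0.07 in their deviations from group means (0 of 12 pairs above 0.1), and those of 2 clones at -0.12 to 0.46 (10 of 18). All 3 pairs exceeded 0.1 for C#1 and C#6 alone (0.17 to 0.22), while those of C#1 and C#2 were 0.46, 0.09 and 0.34. Arrays with different numbers were not compared and the labels state no pairing, so this check cannot decide whether the numbers pair arrays. Figures were drawn with matplotlib 3.10.9.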

Additional observations from a re-analysis of the deposited data

Results flagged for a closer look

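These results stand out because an effect differed between clones in a direct test of the difference. Between C#3 and C#6, 1 of 26 members differed with limma: ORAI3, with a log2 difference of -0.41 (C#3 minus C#6). That is 3.85% of the members, near the 4.06% of all genes that were lower in C#3, and no member passed without parental replicate 2, C#3 replicate 2, C#3 replicate 3 or C#6 replicate 3. C#1 was lower than C#3 in 9 members (8.65% of all genes) and lower than C#6 in 3 (5.61% of all genes). C#2 was lower than C#3 in 12 members (8.79% of all genes) and lower than C#6 in 6 (5.47% of all genes). The last 4 counts use arrays that named the stretch. No group had 4 or more arrays, so single arrays far from the rest of their group were not looked for.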

How the results depend on the processing

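Under 24 alternatives none of the 50 member calls against the parental line changed sign, and 14 were lost under at least 1 of them, as given beside those genes. Renewed quantile normalization ended those of ZNF785 in C#1, ZNF768 in C#2, FBRS in C#3 and ARMC5, FBXL19, KAT8 and ZNF646 in C#6, the mean of probe sets that of ZNF785, the 6 arrays alone that of FBRS in C#3, and trend and robust settings that of ARMC5 in C#6. The members' medians with renewed quantile normalization were -0.39 in C#1, -0.46 in C#2, -0.13 in C#3 and -0.22 in C#6. Members called lower then numbered 14, 15, 5 and 8 in C#1, in C#2, in C#3 and in C#6, where C#6 had 12 as reported. Members called between C#3 and C#6 numbered 1 as reported, 2 with the stricter filter, 3 with trend and robust settings and 0 in the 6 arrays alone. Those called between C#1 and C#6 numbered 5 with renewed quantile normalization, 7 with array weights and 1 in the 6 arrays alone, and between C#2 and C#6 2 in the 6 arrays alone. Array weights gave 3448 genes called in C#1 against 2092. The cause was not tested. With the replicate number as a block, 2 members were called between C#3 and C#6, and 15, 16, 8 and 12 were lower in C#1, in C#2, in C#3 and in C#6 than in the parental line. Between C#1 and C#6, whose same-numbered arrays all correlated above 0.1, 3 members were called with the block and 3 without it.

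Leaving out 1 array at a time gave 1229 to 2241 genes called in C#1, 1265 to 2224 in C#2, 1275 to 2243 in C#3 and 1889 to 2819 in C#6, the lowest without parental replicate 3, and 1368 in C#3 without parental replicate 2. Members called lower then numbered 12 to 15 in C#1, 15 to 17 in C#2, 4 to 8 in C#3 (4 without parental replicate 3) and 8 to 12 in C#6 (8 without parental replicate 2). Their medians were -0.52 to -0.44, -0.59 to -0.52, -0.25 to -0.16 and -0.33 to -0.23 in C#1, in C#2, in C#3 and in C#6. Members called between clones numbered 0 to 2 for C#3 and C#6, 0 throughout for C#1 and C#2, 5 to 10 for C#1 and C#3 (5 without C#1 replicate 2) and 1 to 7 for C#1 and C#6 (5 without C#1 replicate 1, 7 without C#6 replicate 1, 1 without C#6 replicate 2 or 3). They numbered 7 to 13 for C#2 and C#3 (7 without C#2 or C#3 replicate 2) and 2 to 9 for C#2 and C#6 (9 without C#6 replicate 1, 3 without C#2 or C#6 replicate 2, 2 without C#6 replicate 3).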
